A study of Homo sapiens with 24 samples.

Results

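The glucocorticoid receptor and the chaperone proteins that prepare it for hormone were followed through RNA-seq of Nalm6 cells, a human cell line from B-cell precursor acute lymphoblastic leukemia. The group was fixed by gene symbol and holds 8 of the 27389 genes named in the count table: the receptor gene NR3C1, the immunophilin genes FKBP5 and FKBP4, the Hsp90 genes HSP90AA1 and HSP90AB1, the p23 gene PTGES3, the Hop gene STIP1 and the constitutive Hsp70 gene HSPA8. Cells expressed a short hairpin RNA of non-specific sequence (shNS) or one against G9a (shG9a), GLP (shGLP) or HP1γ (shHP1g), delivered by lentivirus. Each was kept for 8 h in 100 nM of the synthetic glucocorticoid dexamethasone (dex) or in the ethanol vehicle, which gave 8 conditions with 3 replicates each and 24 libraries. The replicates of each condition were made on different days. G9a and GLP are histone lysine methyltransferases, HP1γ is a heterochromatin protein that binds methylated lysine, and the study asked how their loss changes transcription by the receptor. All groups, shNS included, carry a hairpin vector, and all results are from 1 cell line.

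As background, the unliganded receptor is handed from Hsp70 to Hsp90 through Hop, and p23 then closes Hsp90 around it, so that it can bind hormone with high affinity. FKBP51, the product of FKBP5, sits on this complex and keeps the affinity for hormone low, whereas FKBP52, the product of FKBP4, replaces it when hormone arrives and links the complex to the motor that carries the receptor to the nucleus. FKBP5 is itself a classic gene induced by the receptor, which makes it part of a short negative feedback loop.

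Library totals ran from 9289533 to 14387770 counts, with a median of 11132064.5, and levels are given as CPM, the count divided by the upper-quartile-scaled library size and set to a common total. The table counts RefSeq accessions (transcripts), not genes. Of accessions whose gene has only 1 accession, 26.3% were at 0 in every library, against 73.9% where the gene has 2 or more, and levels were not compared between genes. Of the labelled pre-B origin's 12 markers, RAG1, IGLL1, MME and CD79A exceeded 1 CPM in every library, while CD79B, DNTT and CD22 were at 0 throughout. Of 14 markers of other lineages, 1 (LYZ, 1.62 to 31.2 CPM) exceeded 1 CPM in every library and 10 stayed below it. Summed over those 14, the level was 4.39 to 9.55 CPM in shNS libraries, 6.14 to 11.8 with shG9a, 5.84 to 15.3 with shHP1g and 22.9 to 36.0 with shGLP. LYZ was the highest of the 14, and COL1A1, the next, reached 4.21 CPM. The summed pre-B level was 1575 to 1829 CPM with shNS, 2168 to 2914 with shG9a, 2268 to 2708 with shGLP and 1173 to 1721 with shHP1g. Most of this sum is RAG1, which alone ranged from 1072 to 2816 CPM, while IGLL1, the next highest, reached 83.0 CPM. Among the targeted genes, EHMT1, which encodes GLP, was tested on NM_001354259 alone. That transcript had a log2 difference from shNS of -0.65 in shGLP ethanol cells (adjusted p = 0.0923) and -0.38 in shGLP dex cells (adjusted p = 0.410), lower in 3 of 3 replicates in each. For CBX3, which encodes HP1γ, NM_016587 differed by -0.50 in ethanol (adjusted p = 0.277) and -0.61 in dex (adjusted p = 0.142) with shHP1g, also lower in 3 of 3 replicates. NM_007276 differed by -0.30 and -0.15 there (adjusted p = 0.644 and 0.842). None of these differences was called, on 18 to 50 counts a library for EHMT1 and 18 to 49 for CBX3 NM_016587 in the libraries compared. The mRNA of G9a is not analysed here.

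The 8 genes have 39 accessions in the table, of which 24 were at 0 in every library and 9 exceeded 1 CPM in at least 2 libraries and were tested. These 9 stand for 7 of the genes. The one gene without a tested transcript was HSP90AB1, the constitutive Hsp90 gene on chromosome 6 (GRCh37, 44213903 to 44221625, plus strand). Its 5 accessions had at most 6 counts in a library (NM_001271969), so it could not be measured. Of the 15 accessions of NR3C1 (chromosome 5, 142657496 to 142815077, minus strand), 12 were at 0, NM_001018076 had 0 to 12 counts, NM_001018077 had 0 to 7, and NM_001204265, with 7 to 49 counts, was tested. FKBP5 (chromosome 6, 35541362 to 35696360, minus strand) was measured on NM_001145777 with 71 to 419 counts, while NM_004117 was at 0 and the other two accessions had at most 13. FKBP4 (chromosome 12, 2904136 to 2914589, plus strand) has a single accession, NM_002014, with 196 to 609 counts. HSP90AA1 (chromosome 14, 102547079 to 102606036, minus strand) had 17 to 45 counts on NM_001017963 and 2 to 23 on NM_005348. PTGES3 (chromosome 12, 57057125 to 57082192, minus strand) had 122 to 216 counts on the non-coding accession NR_104219 and 2 to 13 on NM_001282604. STIP1 (chromosome 11, 63952744 to 63972015, plus strand) had 29 to 57 counts on NM_001282652. HSPA8 (chromosome 11, 122928197 to 122933938, minus strand) was by far the deepest, with 10805 to 20761 counts on NM_006597. HSPA8, HSP90AA1 and PTGES3 have processed pseudogenes, and how reads shared with them, or with an overlapping gene on the other strand, were counted is not stated. Nor is it stated for reads shared by several accessions of the same gene. For genes with several accessions, the values below are therefore those of the tested transcripts. A missing call does not show that the whole mRNA of such a gene was unchanged.

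Dex raised FKBP5 in all 4 cell populations and lowered HSPA8 in all 4, and no other member passed the test. A transcript was called at an adjusted p of at most 0.05 over all 10167 tested transcripts. With that rule 2 of the 9 member transcripts were called with dex in each population, against 9.95% of all transcripts in shNS, 6.24% in shG9a, 3.29% in shGLP and 3.22% in shHP1g cells. The median log2 change of the 9 was -0.24 in shNS cells (-0.028 over all transcripts), -0.19 with shG9a (0.0048), -0.078 with shGLP (-0.0058) and -0.045 with shHP1g (-0.011).

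**Figure D1:**
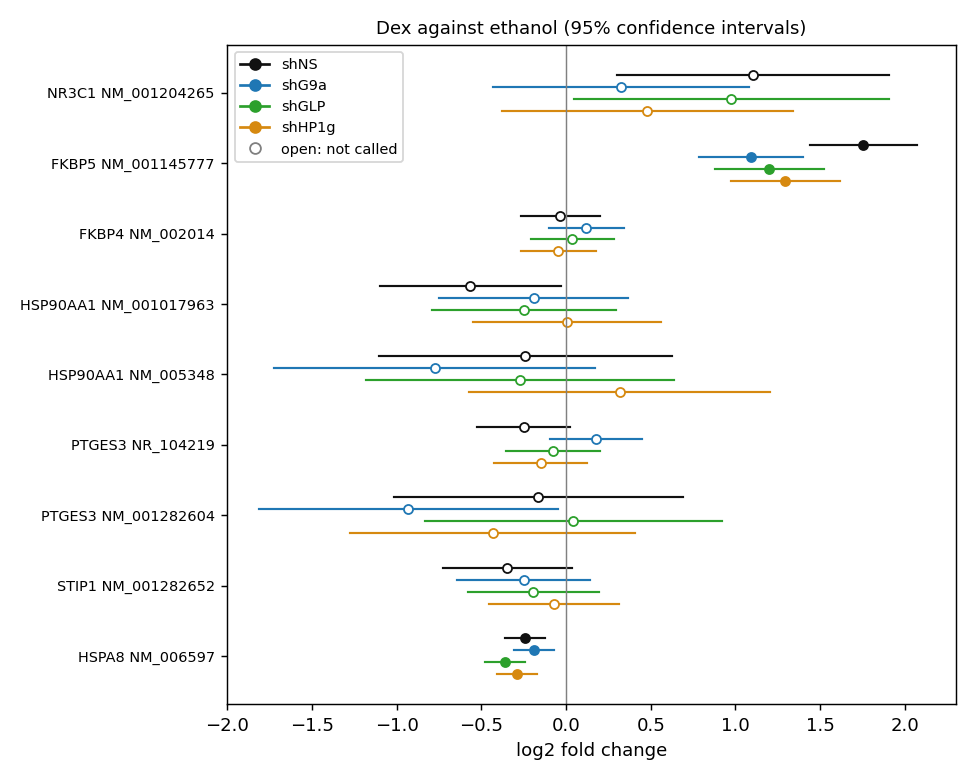
Log2 fold change of each tested member transcript with dex against ethanol (x axis) in the 4 cell populations, with 95% confidence intervals. Filled points were called, and only FKBP5, to the right of 0, and HSPA8, just to the left of it, are filled in every population.

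FKBP5 was the member with the largest response. In shNS cells its level was 8.95, 7.37 and 10.6 CPM in ethanol and 25.9, 30.2 and 33.9 CPM in dex, in the order of replicates 1 to 3. In shG9a cells it was 10.9, 8.43 and 14.3 CPM in ethanol and 25.5, 15.5 and 31.3 CPM in dex. Every dex library lay above every ethanol library of its population, with the narrowest gap in shG9a cells. In shGLP cells the values were 9.76, 8.32 and 12.0 CPM in ethanol and 20.1, 18.5 and 31.1 CPM in dex. In shHP1g cells they were 7.82, 7.04 and 13.4 CPM in ethanol and 18.4, 22.1 and 27.6 CPM in dex. The fitted rise was 3.38-fold in shNS (log2 1.76, SE 0.15, adjusted p = 1.41e-08), 2.13-fold in shG9a (1.09, SE 0.15, 3.49e-05), 2.298-fold in shGLP (1.2, SE 0.15, 1.53e-05) and 2.45-fold in shHP1g cells (1.30, SE 0.16, 5.49e-06). FKBP5 thus also passed a 2-fold limit in every population, which 1.92% of all transcripts did in shNS, 1.24% in shG9a, 0.836% in shGLP and 0.885% in shHP1g cells.

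The FKBP5 levels fell into 2 separate bands, one for each treatment. In order of the means (SD over 3 replicates), the ethanol conditions were shNS at 8.98 ± 1.63, shHP1g at 9.41 ± 3.45, shGLP at 10.0 ± 1.87 and shG9a at 11.2 ± 2.95 CPM. The dex conditions followed with shHP1g at 22.7 ± 4.62, shGLP at 23.2 ± 6.82, shG9a at 24.1 ± 7.97 and shNS at 29.98 ± 4.01 CPM. Within a treatment no pair of populations was called, so neighbours in this order were not told apart.

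In dex, FKBP5 stood at 78.3% of the shNS level with shG9a, 75.9% with shGLP and 75.4% with shHP1g, and it was lower than shNS in 3 of 3 replicates for each hairpin, although the groups overlapped. The log2 differences were -0.35, -0.40 and -0.41, and none was called (adjusted p = 0.118, 0.110 and 0.109). The 3 comparisons share the shNS libraries. Other settings called some of them: with 2 RUV factors (unwanted variation estimated from the residuals) in place of the replicate block, all 3 passed. The change in response itself, tested as the interaction of dex with each hairpin, was -0.66 with shG9a (95% interval -1.11 to -0.22), -0.56 with shGLP (-1.01 to -0.10) and -0.46 with shHP1g (-0.91 to -0.01). The unadjusted p was 0.00513, 0.0182 and 0.0466, and the adjusted p was 0.615, 1.00 and 1.00. By edgeR no member's interaction was called, against 0.0885%, 0.118% and 0.0197% of all transcripts, while 2, 1 and 1 of the 9 had an unadjusted p under 0.05.

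**Figure D2:**
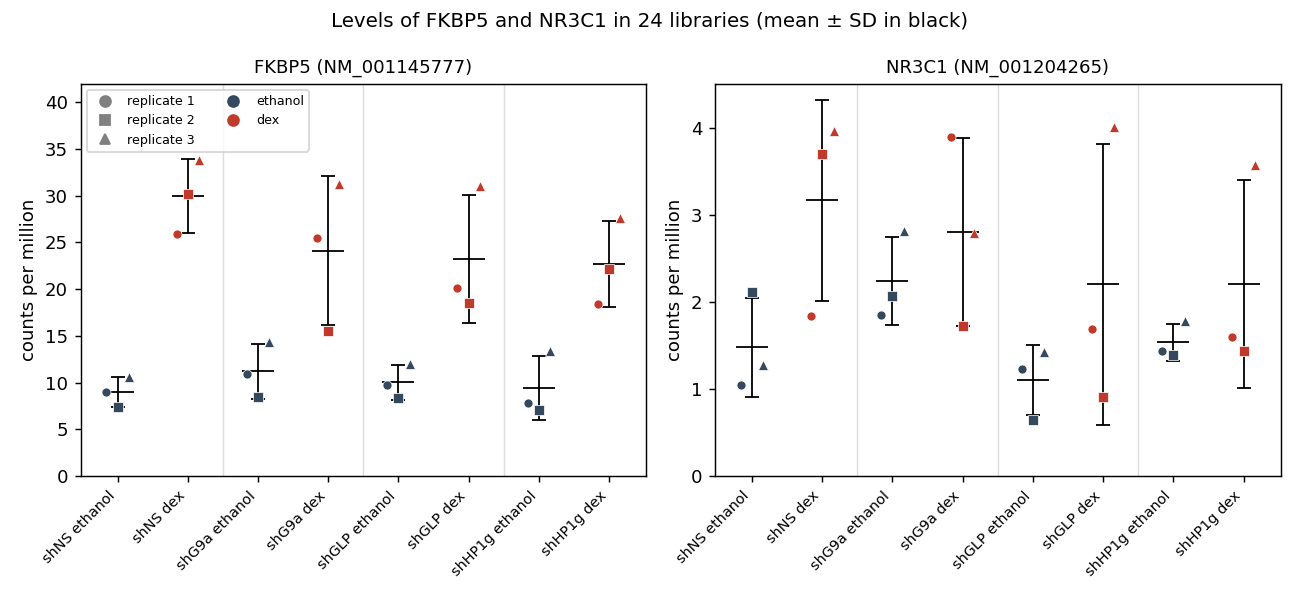
Levels of FKBP5 (left) and NR3C1 (right) in CPM in the 24 libraries by condition, with marker shape for the replicate, colour for the treatment, and the mean with its SD in black. FKBP5 forms separate ethanol and dex bands, whereas the NR3C1 groups overlap and lie between 0.647 and 4.01 CPM.

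The transcripts whose pattern over the 24 libraries was most like that of FKBP5, by Pearson's r of log2 CPM with replicate means removed among the 5605 transcripts of other genes whose average level reached 5 CPM, were CLN8 (r = 0.972), RASSF4 (0.967), CTD-2201I18.1 (0.961), MCAM (0.959) and C1orf186 (0.948). The libraries share the same 8 conditions, so these values describe a common response to dex and carry no test. For NR3C1 the closest were OTUD7A (0.748), SRSF11 (0.729), ARSK (0.717), UBN2 (0.713) and CRYBG3 (0.697), among 5606 transcripts. For HSP90AA1 (NM_001017963) they were XPO4 (0.704), ATXN10 (0.683), SKIV2L2 (0.681), PSAT1 (0.680) and ANAPC1P1 (0.678). The values for NR3C1 and HSP90AA1 are the highest of 5606 each, on only 7 to 49 and 17 to 45 counts a library. They were not tested and do not show a shared regulation.

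The sequence before a start site of FKBP5 is shown because FKBP5 gave the largest response, and it can be set against the Hsp90 and Hsp70 sequences further on. It covers the 250 bases upstream of the outer start site in RefSeq (promoter table on GRCh38.p14, placed on GRCh37 at chr6:35696361-35696610, minus strand), and it overlaps no annotated exon of a protein-coding gene.
FKBP5: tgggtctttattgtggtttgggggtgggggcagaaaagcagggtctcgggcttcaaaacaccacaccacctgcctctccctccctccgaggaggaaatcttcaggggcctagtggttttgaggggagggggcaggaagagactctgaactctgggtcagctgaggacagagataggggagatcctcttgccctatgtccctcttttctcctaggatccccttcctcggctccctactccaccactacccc
It was searched on both strands for the glucocorticoid receptor hexamer AGAACA and for the paired heat shock units TTCNNGAA and GAANNTTC, and holds none of them. Of 35116 windows of this length in the table, 12.4% hold the hexamer, 6.62% hold TTCNNGAA and 5.78% hold GAANNTTC. The table has 18 windows for 7 members, 2 of them for FKBP5, and none for FKBP4. Which start site a measured transcript uses was not determined. Within those 18 the hexamer was found in 1 window, each of the heat shock units in 3.

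NR3C1, the receptor gene, was tested on 1 transcript at low depth, and the change of that transcript with dex was not called in any population. With 12 of the gene's 15 accessions at 0, the level of its whole mRNA was not determined. In shNS cells the tested transcript had 1.04, 2.12 and 1.28 CPM in ethanol and 1.84, 3.70 and 3.96 CPM in dex. In shG9a cells it had 1.85, 2.07 and 2.81 CPM in ethanol and 3.89, 1.73 and 2.80 CPM in dex. The dex libraries were higher in 3 of 3 replicates of shNS cells, but in 1 of 3 of shG9a cells. In shGLP cells the values were 1.23, 0.647 and 1.42 CPM in ethanol against 1.695, 0.905 and 4.01 CPM in dex. In shHP1g cells they were 1.44, 1.39 and 1.78 CPM against 1.59, 1.44 and 3.58 CPM. The ethanol and dex groups overlapped in all 4 populations. The log2 differences were 1.10 in shNS (95% interval 0.30 to 1.91, adjusted p = 0.0783), 0.32 in shG9a (-0.43 to 1.08, 0.674), 0.98 in shGLP (0.05 to 1.91, 0.319) and 0.48 in shHP1g cells (-0.38 to 1.34, 0.698).

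The shNS difference of NR3C1 passed in 6 of 17 other settings, among them the sum of all NR3C1 accessions (log2 1.02, adjusted p = 0.0432), a fit restricted to the shNS libraries (1.11, 0.00274) and one without ethanol replicate 2 (1.63, 0.0196). The shG9a difference became -0.15 without the dex library of replicate 1. In order of the means the conditions were shGLP ethanol (1.10 ± 0.40 CPM), shNS ethanol (1.48 ± 0.57), shHP1g ethanol (1.54 ± 0.21), shGLP dex (2.20 ± 1.61), shHP1g dex (2.21 ± 1.19), shG9a ethanol (2.24 ± 0.50), shG9a dex (2.81 ± 1.08) and shNS dex (3.17 ± 1.16). Within a treatment no population differed from shNS beyond the error, with log2 differences of -0.18, -0.57 and -0.57 in dex (adjusted p = 0.813, 0.488 and 0.494, for shG9a, shGLP and shHP1g) and 0.60, -0.45 and 0.05 in ethanol (0.559, 0.798 and 0.980). The intervals are wide at this depth, the widest from -1.43 to 0.54 for shGLP in ethanol.

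HSPA8 encodes Hsc70, the Hsp70 of unstressed cells that loads the receptor onto Hsp90. In shNS cells its level was 1375, 1581 and 1687 CPM in ethanol and 1162, 1326 and 1432 CPM in dex. In shG9a cells it was 1378, 1415 and 1718 CPM in ethanol and 1172, 1366 and 1418 CPM in dex. Each dex library lay below the ethanol library of the same replicate, and the libraries of replicate 1 were the lowest of their group in all 8 conditions. In shGLP cells the values were 1446, 1542 and 1844 CPM in ethanol and 1145, 1275 and 1331 CPM in dex, the only population whose groups did not overlap. In shHP1g cells they were 1324, 1591 and 1709 CPM in ethanol and 1029, 1353 and 1411 CPM in dex. With dex HSPA8 fell to 84.4% of the ethanol level in shNS (log2 -0.24, SE 0.06, adjusted p = 0.00547), 87.8% in shG9a (-0.19, SE 0.06, 0.0496), 77.8% in shGLP (-0.36, SE 0.06, 0.000242) and 81.8% in shHP1g cells (-0.29, SE 0.06, 0.00304).

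These 4 calls rest on the replicate block: without it the adjusted p was 0.386, 0.555, 0.270 and 0.517, and without replicate 3 all 4 were lost as well, while the direction stayed the same. The shG9a call was also lost with TMM scaling (adjusted p = 0.0623) and in 9 further settings. The hairpins made no called difference to HSPA8. Against shNS, the log2 differences lay between -0.06 and 0.06 over both treatments, and the interval for shGLP in dex ran from -0.18 to 0.06.

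**Figure D3:**
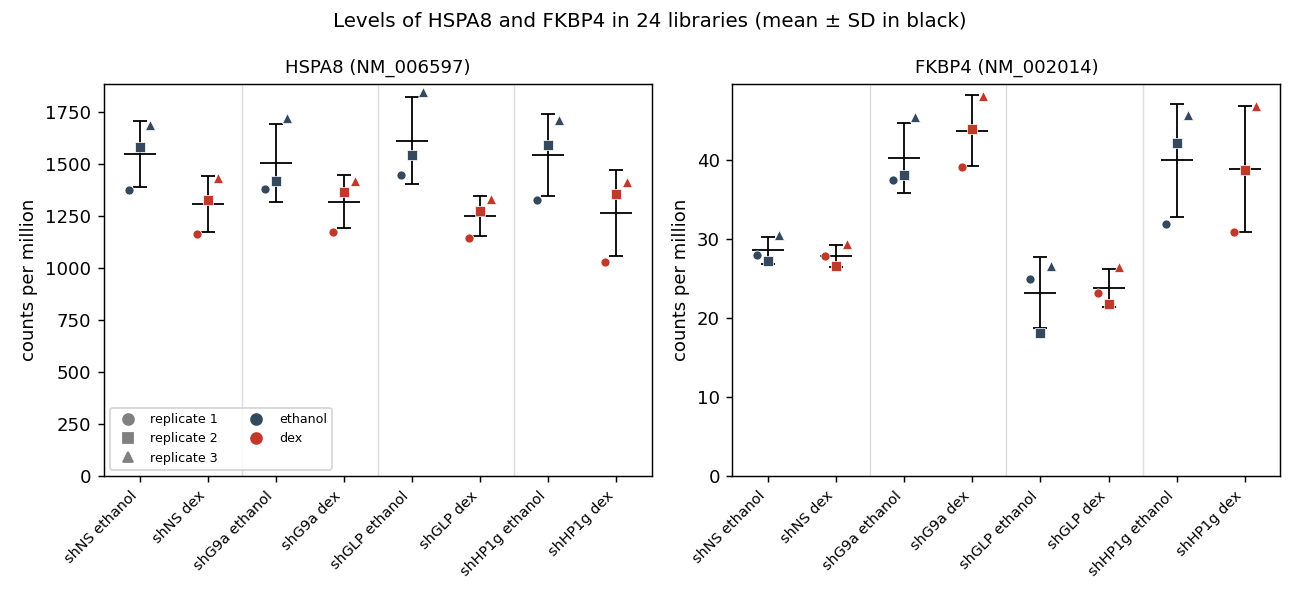
Levels of HSPA8 (left) and FKBP4 (right) in CPM in the 24 libraries by condition, drawn as for FKBP5. HSPA8 is lower in dex than in ethanol in each replicate of each population, whereas FKBP4 lies between 30.8 and 48.0 CPM with shG9a and shHP1g and between 18.1 and 30.4 CPM with shNS and shGLP.

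FKBP4 differed between hairpins and not between treatments. In shNS cells it had 28.0, 27.2 and 30.4 CPM in ethanol and 27.8, 26.5 and 29.3 CPM in dex. In shG9a cells it had 37.4, 38.0 and 45.3 CPM in ethanol and 39.1, 43.8 and 48.0 CPM in dex. All 6 shG9a libraries exceeded all shNS libraries. In shHP1g cells it had 31.9, 42.1 and 45.7 CPM in ethanol and 30.8, 38.7 and 46.7 CPM in dex, again above every shNS library. In shGLP cells it had 25.0, 18.1 and 26.5 CPM in ethanol and 23.1, 21.8 and 26.4 CPM in dex, below every shNS library of the same treatment. In order of the means the populations were shGLP (23.2 ± 4.46 in ethanol, 23.8 ± 2.37 in dex), shNS (28.5 ± 1.71 and 27.9 ± 1.39), shHP1g (39.9 ± 7.15 and 38.8 ± 7.95) and shG9a (40.3 ± 4.42 and 43.6 ± 4.46).

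Against shNS, FKBP4 rose 1.57-fold with shG9a in dex (log2 0.65, SE 0.11, adjusted p = 0.000448) and 1.41-fold in ethanol (0.49, SE 0.11, 0.0104). With shHP1g it rose 1.38-fold in dex (0.47, SE 0.11, adjusted p = 0.0136) and 1.39-fold in ethanol (0.48, SE 0.11, 0.0166). With shGLP the log2 difference was -0.23 in dex (adjusted p = 0.315) and -0.30 in ethanol (0.198), which was not called. FKBP4 was the one member called in these comparisons, as 1 of 9 member transcripts with shG9a and with shHP1g and 0 of 9 with shGLP. Of all transcripts, 8.80% were called with shG9a, 5.77% with shGLP and 4.09% with shHP1g in dex, and 3.73%, 3.61% and 2.91% in ethanol. With shGLP, edgeR gave 1 of the 9 an unadjusted p under 0.05 in each treatment (FKBP5 in dex and FKBP4 in ethanol), and DESeq2 called none.

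The hairpins were also compared with each other, a comparison chosen after the levels had been seen. FKBP4 was higher with shG9a than with shGLP, 1.84-fold in dex (log2 0.88, SE 0.11, adjusted p = 1.36e-05) and 1.74-fold in ethanol (0.80, SE 0.11, 6.26e-05), where 8.62% and 6.23% of all transcripts were called. It was higher with shHP1g than with shGLP as well, 1.62-fold in dex (0.70, SE 0.11, adjusted p = 0.000308) and 1.72-fold in ethanol (0.78, SE 0.11, 8.58e-05), where 4.02% and 4.20% were called. Between shHP1g and shG9a the log2 difference was -0.18 in dex (95% interval -0.40 to 0.04) and -0.01 in ethanol (-0.24 to 0.21). The shGLP libraries that lie lowest are also those with the highest summed level of the 14 other-lineage markers (22.9 to 36.0 CPM). In that list LYZ alone reached 31.2 CPM, and no other marker exceeded 4.21 CPM in any library. The part of these markers in the FKBP4 difference was not tested.

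The shG9a call for FKBP4 in dex was lost without replicate 3 (log2 0.61, adjusted p = 0.0823) and kept in all 17 other settings. The other three calls were lost without the replicate block (adjusted p = 0.147 for shHP1g in dex, 0.147 for shG9a and 0.168 for shHP1g in ethanol) and when 1 of several libraries was left out. Dex gave no called change of FKBP4, with log2 differences of -0.03 in shNS (95% interval -0.27 to 0.20), 0.12 in shG9a (-0.10 to 0.34), 0.04 in shGLP (-0.21 to 0.28) and -0.05 in shHP1g cells (-0.27 to 0.18).

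**Figure D4:**
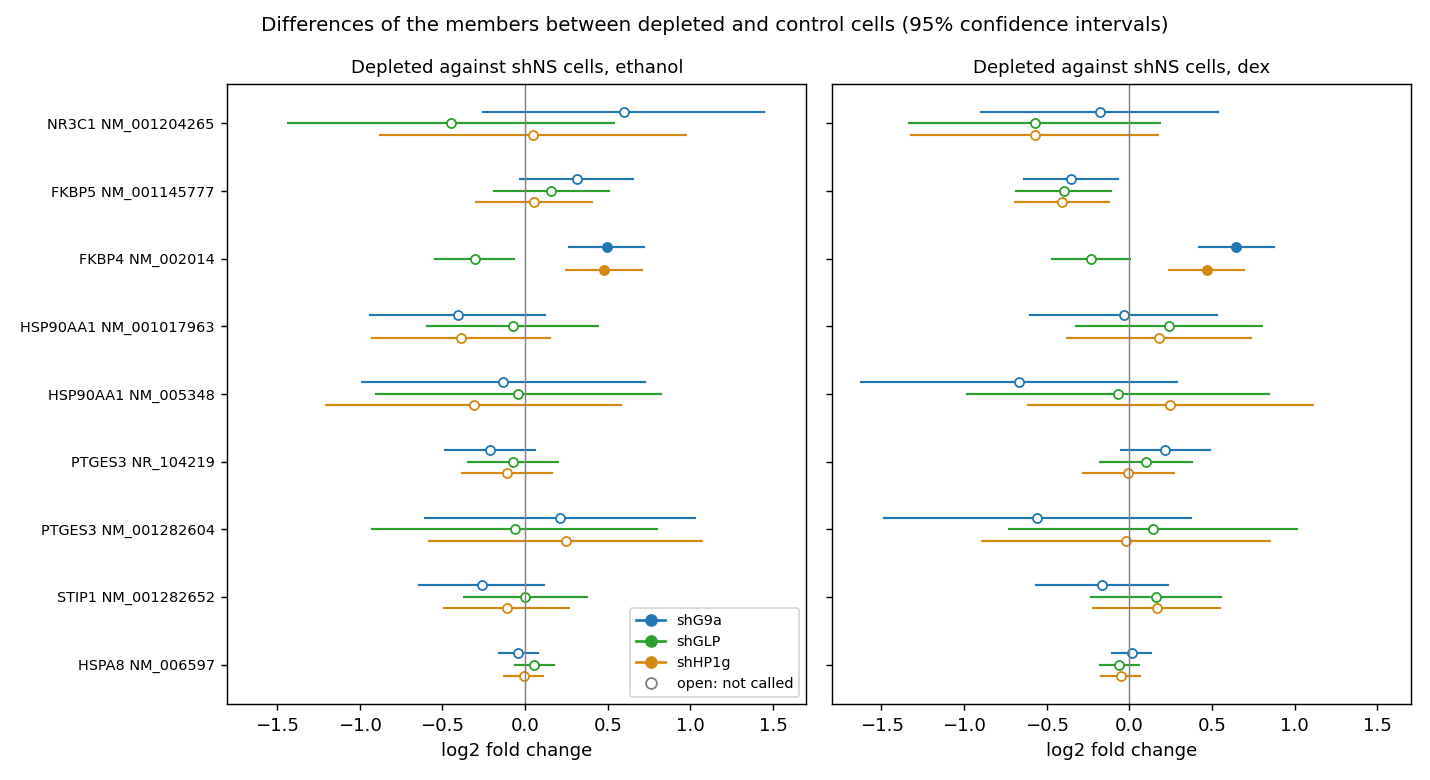
Log2 difference of each tested member transcript between cells with a depleting hairpin and shNS cells in ethanol (left) and dex (right), with 95% confidence intervals and filled points for called transcripts. FKBP4 is filled with shG9a and shHP1g in both treatments and lies to the left of 0 with shGLP, and the deep HSPA8 has the shortest intervals.

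HSP90AA1 encodes the inducible Hsp90, the chaperone that holds the receptor ready for hormone. Its NM_001017963 had 3.39, 3.68 and 3.83 CPM in shNS ethanol libraries and 2.67, 2.06 and 2.67 CPM in shNS dex libraries, which did not overlap. The log2 difference was -0.57 (95% interval -1.10 to -0.03), with an adjusted p of 0.205. It was -0.19 in shG9a, -0.25 in shGLP and 0.00318 in shHP1g cells, with overlapping groups and adjusted p from 0.751 to 0.999. The second accession, NM_005348, ranged from 0.144 to 2.17 CPM, and its dex differences ran from -0.78 in shG9a to 0.32 in shHP1g cells with no call. None of the comparisons with shNS was called for either accession. How many of all transcripts have dex and ethanol groups that do not overlap was not counted.

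The Hsp90 and Hsp70 start regions are shown because they hold the heat shock units that the FKBP5 window lacks. Capitals mark TTCNNGAA and GAANNTTC, which overlap each other in all runs but the second of HSP90AA1, where TTCNNGAA stands alone. The HSP90AA1 sequence is the 250 bases before the inner RefSeq start site (GRCh37 chr14:102553382-102553631, minus strand) and overlaps no annotated exon of a protein-coding gene.
HSP90AA1: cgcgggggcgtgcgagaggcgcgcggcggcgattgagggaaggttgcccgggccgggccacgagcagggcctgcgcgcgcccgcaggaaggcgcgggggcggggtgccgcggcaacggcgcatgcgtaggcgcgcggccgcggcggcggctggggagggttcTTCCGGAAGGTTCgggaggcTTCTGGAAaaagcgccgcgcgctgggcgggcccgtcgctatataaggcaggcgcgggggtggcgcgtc
The capitals start 88 and 68 bases before the start site. For HSPA8 and HSP90AB1 only the stretch around each run is given, since their windows overlap annotated exons, at chr11:122933055-122933081 and chr11:122932880-122932906 (minus strand) and at chr6:44215508-44215534 and chr6:44215559-44215587 (plus strand), in this order.
HSPA8, 230 bases before the start site: cgagcttGAAAGTTCCAGAAcgctgcg
HSPA8, 55 bases before the start site: gggccccTTCTGGAAGGTTCtaagata
HSP90AB1, 165 bases before the start site: gagcaggTTCTGGAAGATTCatgggct
HSP90AB1, 114 bases before the start site: ctgagatTGTTCTGGAAGCTTCtggattc
The last run also holds the hexamer on the other strand (TGTTCT), which overlaps the heat shock unit. Both units stand in 1 window each of HSP90AA1, HSP90AB1 and HSPA8, and in 0.817% of all windows. These are matches of letters and not measured binding, and the measured transcripts were not assigned to these start sites.

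PTGES3 encodes p23, the co-chaperone that stabilises the closed form of Hsp90. Its NR_104219 had 14.9, 17.8 and 17.8 CPM in ethanol and 14.7, 11.9 and 16.0 CPM in dex in shNS cells. In shG9a cells it had 16.5, 12.4 and 14.98 CPM in ethanol and 17.8, 14.6 and 16.97 CPM in dex. The values were lower with dex in 3 of 3 replicates of shNS cells and higher in 3 of 3 of shG9a cells, with overlapping groups. The log2 differences were -0.25 (adjusted p = 0.288) and 0.17 (0.490), and their difference, 0.43, had an unadjusted p of 0.0311 and an adjusted p of 0.689. In shGLP and shHP1g cells they were -0.08 and -0.15, also not called. NM_001282604 passed the filter with little room, at 0.173 to 1.03 CPM, and its largest difference, -0.93 in shG9a cells, had an adjusted p of 0.224.

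STIP1 encodes Hop, the adaptor that carries the receptor from Hsp70 to Hsp90. Its NM_001282652 had 4.17, 5.25 and 3.91 CPM in shNS ethanol libraries and 3.68, 3.61 and 3.15 CPM in shNS dex libraries, with no overlap and a log2 difference of -0.35 (95% interval -0.73 to 0.03, adjusted p = 0.294). The difference was -0.25 in shG9a, -0.19 in shGLP and -0.07 in shHP1g cells. Over the 24 libraries the level ranged from 2.59 to 5.25 CPM, and none of its comparisons was called. The lack of overlap in shNS cells was not set against all transcripts.

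The wider machinery around the members was described with lists of related genes that exclude the 8. Some lists share genes, among them DNAJA1 and DNAJB1. In the Hsp70 cycle list (Hsp70 paralogues, J proteins that stimulate them and nucleotide exchange factors), 13 of 21 genes had 16 tested transcripts. With dex in shNS cells 0 of these were called higher and 4 lower, against 4.49% and 5.46% of all transcripts, and the median log2 change was -0.24 (-0.028 over all). The J proteins DNAJA1 and DNAJB1 fell to 65.9% (log2 -0.60, adjusted p = 3.81e-05) and 75.8% (-0.40, 0.00179) of the ethanol level. The exchange factors HSPA4 and BAG2 fell to 82.8% (-0.27, adjusted p = 0.000348) and 79.5% (-0.33, 0.00299). With the hairpins 2 of the 16 fell in shG9a, 2 in shGLP and 3 in shHP1g cells with dex, DNAJA1 and HSPA4 in each, where 2.98%, 1.34% and 1.09% of all transcripts were called lower. Without replicate 3 the count was 1 in shNS and shG9a and 0 in shGLP and shHP1g cells, and without the replicate block it was 3, 1, 0 and 0.

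In the list of other Hsp90 paralogues and co-chaperones, 12 of 22 genes had 13 tested transcripts, of which 0 rose and 3 fell with dex in shNS cells (median log2 -0.11). HSP90B1, the Hsp90 of the endoplasmic reticulum, fell to 74.2% (-0.43, adjusted p = 7.18e-05), NUDC, a co-chaperone also known in cell division, to 79.8% (-0.33, 0.00303), and TOMM34, a cytosolic Hsp90 partner in mitochondrial import, to 85.3% (-0.23, 0.0470). In shG9a cells none of the 13 was called by edgeR, limma or DESeq2, and 0 had an unadjusted p under 0.05. In shGLP cells HSP90B1 and NUDC fell, and in shHP1g cells NUDC fell. The shares of all transcripts called lower were 5.46% in shNS, 2.98% in shG9a, 1.34% in shGLP and 1.09% in shHP1g cells. Only 1 of the 13 was still called lower in shNS cells without the replicate block or without replicate 3, and none was called in the other populations.

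In the heat shock response list (targets and regulators of HSF1), 10 of 18 genes had 12 tested transcripts, of which 0 rose and 4 fell in shNS cells (median log2 -0.19). The small heat shock protein HSPB1 fell to 59.5% (-0.75, adjusted p = 1.21e-07) and the mitochondrial co-chaperonin HSPE1 to 70.8% (-0.50, 0.000238), beside DNAJA1 and DNAJB1. With the hairpins, 3 fell in shG9a, 2 in shGLP and 4 in shHP1g cells, HSPB1 and DNAJA1 in each. Of all transcripts, 5.46% were called lower with dex in shNS, 2.98% in shG9a, 1.34% in shGLP and 1.09% in shHP1g cells. HSPB1 reached 74.7% of the ethanol level in shG9a, 71.5% in shGLP and 69.9% in shHP1g cells. Without the replicate block, the counts were 3, 1, 0 and 0 (shNS, shG9a, shGLP, shHP1g), and without replicate 3 they were 3, 1, 0 and 1.

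Of the other FKBP family members, 5 of 14 genes had 6 tested transcripts, and FKBP11, an immunophilin of the secretory pathway, fell with dex in shNS cells to 70.2% (log2 -0.51, adjusted p = 0.0320). It was higher with shG9a than with shNS in dex (0.56, 0.0216). Both calls were lost without the replicate block, and no other family member was called in any comparison. In the list for nuclear transport, motor subunits and ligand handling, 11 of 15 genes had 12 tested transcripts, with 0 called with dex or against shNS by edgeR or limma. With dex 3 of the 12 had an unadjusted p under 0.05 in shNS and 2 in each other population, against shNS 2, 0 and 1 in dex and 0, 0 and 1 in ethanol (shG9a, shGLP, shHP1g), and DESeq2 called 1 lower with shG9a in dex and 1 with shHP1g in each treatment. Of the receptor's coregulators, 13 of 21 genes had 14 tested transcripts. The arginine methyltransferase CARM1 fell in shNS cells to 81.2% (-0.30, adjusted p = 0.00158), and the corepressor NRIP1 fell in shG9a cells to 75.6% (-0.40, 0.0387). Both calls were lost without the replicate block and without replicate 3, and NRIP1 was called in only 7 of 17 other settings. For comparison with these lists, 9.95% of all transcripts were called with dex in shNS, 6.24% in shG9a, 3.29% in shGLP and 3.22% in shHP1g cells. Against shNS the shares were 8.8%, 5.77% and 4.09% in dex and 3.73%, 3.61% and 2.91% in ethanol (shG9a, shGLP, shHP1g). The list counts were not tested against these shares.

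Genes known as targets of the receptor, a list partly drawn from results on these same samples, went the other way: of 24 tested transcripts of 17 of its 20 genes, 21 rose and 1 fell with dex in shNS cells (median log2 1.26), where FKBP5 itself rose by 1.76. In shG9a, shGLP and shHP1g cells 17, 14 and 17 rose, with medians of 1.02, 0.92 and 0.98, where 3.26%, 1.95% and 2.12% of all transcripts were called higher. TSC22D3, which encodes the anti-inflammatory protein GILZ, rose by 3.48, 3.89, 3.23 and 3.46 on its NM_004089 in shNS, shG9a, shGLP and shHP1g cells. Its level was lower than in shNS cells with shG9a in ethanol (log2 -1.39, adjusted p = 0.000599) and dex (-0.97, 4.3e-05) and with shGLP in dex (-0.83, 0.000215). RASSF4, of the Ras association family, rose by 4.37, 3.01, 2.79 and 3.24, the cytokine signalling inhibitor SOCS1 by 2.91, 2.13, 2.06 and 1.74, and the clock gene PER1 by 1.25, 0.53, 0.80 and 0.89. An interaction was called for PER1 with shG9a (-0.72, adjusted p = 0.00344) and for RASSF4 with shGLP (-1.58, 0.0273), and for FKBP5 with neither. Both calls were lost without the replicate block.

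**Figure D5:**
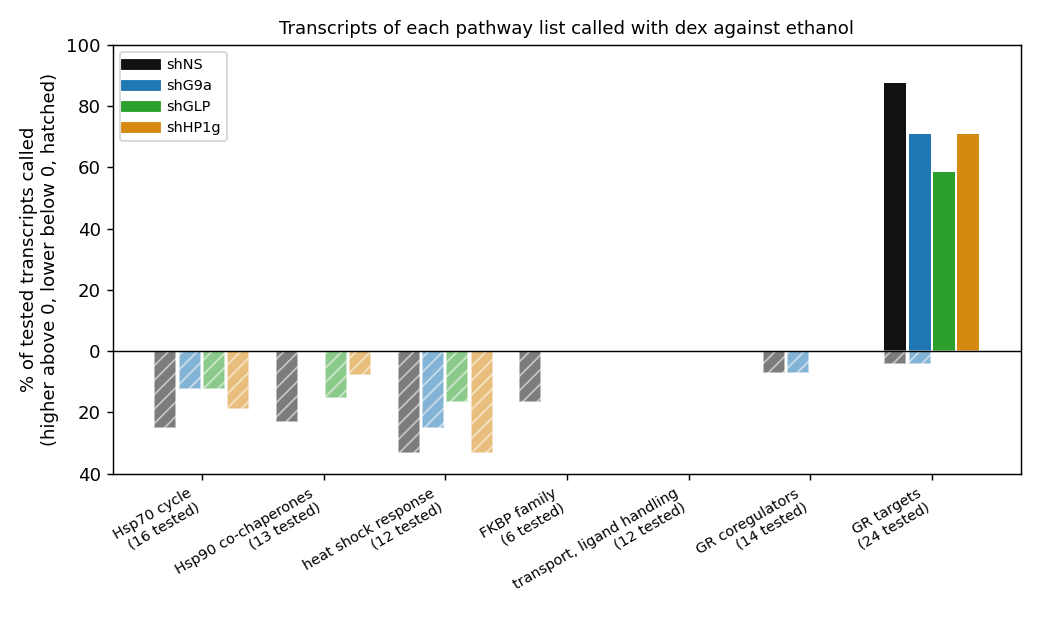
Share of the tested transcripts of each list called with dex against ethanol in the 4 populations, higher above 0 and lower below 0 (hatched), in percent of the tested transcripts. The 3 chaperone lists have only lower calls, the transport list has none, and the receptor's targets have mostly higher calls, with 21 of 24 in shNS cells.

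Against shNS, some of the 16, 13 and 12 tested transcripts of the chaperone lists (Hsp70 cycle, Hsp90 co-chaperones, heat shock response) were called. In dex 1, 1 and 0 were higher with shG9a, 2, 1 and 2 with shGLP, and 1, 1 and 1 with shHP1g. Of all transcripts, 8.8%, 5.77% and 4.09% were called in dex and 3.73%, 3.61% and 2.91% in ethanol (shG9a, shGLP, shHP1g), in either direction. HSPA6, a stress-induced Hsp70 measured at 7 to 51 counts, was higher in dex with shG9a (log2 1.44, adjusted p = 0.000372), shGLP (1.37, 0.000744) and shHP1g (1.00, 0.0231), and in ethanol with shG9a (0.89, 0.0298) and shGLP (1.19, 0.00185). Its reads may be shared with near-identical Hsp70 copies. HSP90B1 was higher with shGLP in dex (0.40, adjusted p = 0.000287) and ethanol (0.25, 0.0295) and with shHP1g in dex (0.36, 0.00174), HSPB1 with shGLP (0.50, 7.62e-05) and shHP1g (0.31, 0.0146) in dex, and DNAJA1 with shGLP in dex (0.30, 0.0472). NUDC was higher with shG9a in dex (0.23, adjusted p = 0.0456). The J protein DNAJB6 was lower with shG9a in dex (-0.28, adjusted p = 0.0336) and ethanol (-0.36, 0.00927). Without the replicate block only HSPA6 with shG9a and HSP90B1 with shGLP, both in dex, kept their calls. In dex, HSP90B1 with shGLP was called in all 17 other settings, and HSPA6 in 14 of 16 with shG9a and with shGLP. HSPA6 with shHP1g was called in only 3 of 16, and DNAJA1 with shGLP and DNAJB6 with shG9a in 5 of 17 each.

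Of the 14 tested coregulator transcripts, 1 was called higher and 1 lower with shG9a than with shNS in each treatment. With shHP1g 1 was higher in dex and 0 in ethanol, and with shGLP none was called. Of all transcripts, 8.8% were called with shG9a, 5.77% with shGLP and 4.09% with shHP1g in dex, and 3.73%, 3.61% and 2.91% in ethanol. The Mediator subunit MED14 was lower with shG9a in dex (-0.25, adjusted p = 0.00136) and ethanol (-0.22, 0.00737), CARM1 was higher in dex with shG9a (0.22, 0.0245) and shHP1g (0.26, 0.0124), and NRIP1 was higher with shG9a in ethanol (0.42, 0.0408). Without the replicate block only MED14 in dex kept its call, which was lost without replicate 3. Among the receptor's targets, a list partly drawn from results on these samples and so no independent evidence of direction, BTG1, an inhibitor of proliferation, differed by -0.35, -0.75 and -0.49, TXNIP, an inhibitor of thioredoxin, by -0.78, -0.71 and -0.83, and SOCS1 by -1.26, -0.89 and -0.74 (shG9a, shGLP, shHP1g). PER1 differed by -0.61 with shG9a and -0.42 with shGLP, and TSC22D3, on the transcript given above, by -0.97 and -0.83. These are log2 differences from shNS in dex, and each was called. Without the replicate block BTG1 with shG9a and PER1 and TSC22D3 with shGLP lost their calls. Of the 24 tested target transcripts, 9, 9 and 8 were lower in dex and 0, 2 and 1 higher (shG9a, shGLP, shHP1g). The higher ones were IRS2 (0.35 with shGLP, 0.47 with shHP1g) and DUSP1 (0.33 with shGLP). In ethanol 2, 2 and 0 were lower, BTG1 with shGLP among them (-0.47, adjusted p = 0.000789), and 0, 0 and 1 higher.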

How the data were processed

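RNA-seq counts for 24 libraries of Nalm6 cells were analysed. According to the methods, the authors aligned trimmed paired-end reads with HISAT2 to GRCh37 (hg19), and RefSeq transcripts were then counted; counting mode, strand and RefSeq release are not given in the sources used here. The deposited counts are whole, unnormalized numbers per accession, although the table is named for CPM. Of 64519 accessions, 40144 were at 0 in every library. All columns could be mapped to samples by name. A second deposited table, which holds the authors' own comparisons (log2 fold change, FDR), was used only to name 9872 accessions; RefSeq named 53873, and 774 had no symbol.

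Transcripts with more than 1 CPM in at least 2 libraries (10167 of 9383 genes) were tested with edgeR 4.0.16 in R 4.3.3: upper quartile scaling (factors 0.967 to 1.03), 8 groups plus replicate block over all 24 libraries, two-sided quasi-likelihood F tests, Benjamini-Hochberg adjustment over all tested transcripts, and 95% intervals. Levels are mean ± SD over 3 replicates. Alternatives were TMM, DESeq2 1.42.0, limma 3.58.1 on log2(CPM + 1), other filters, 2 RUV factors, no block, summed accessions and omitted libraries. The block is used because the labels place the replicates of a condition on different days, without saying that a number marks 1 day for all conditions; deviations from group means correlated between same-numbered libraries in 79 of 84 pairs of groups by over 0.1 (r from -0.042 to 0.830).

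The members and lists were chosen with earlier results of these data known. Named genes are all members, EHMT1, CBX3, up to 4 called genes of smallest p per list and family of comparisons (dex, hairpin), and the 5 transcripts most like NR3C1, FKBP5 and HSP90AA1. Promoter windows of 250 bases came from RefSeq and were placed on GRCh37 by exact match. No sequence of a protein was used.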

Additional observations from a re-analysis of the deposited data

Results flagged for a closer look

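The dex differences of FKBP4 and PTGES3 had opposite signs in every replicate of shNS and of shG9a cells, and none of them was called. All 9 tested member transcripts were searched for such signs with each hairpin. How often all transcripts show them was not counted. For FKBP4 the log2 differences in the shNS replicates were as small as -0.0085, -0.036 and -0.057. FKBP4 differed by -0.03 on the log2 scale in shNS (below ethanol in 3 of 3 replicates) and 0.12 in shG9a cells (above it in 3 of 3), with an interaction of 0.15 on the log2 scale (95% interval -0.17 to 0.47, adjusted p = 0.854). PTGES3 (NR_104219) differed by -0.25 and 0.17, with the same signs, and had an interaction of 0.43 (0.04 to 0.81, adjusted p = 0.689), which ran from 0.24 to 0.57 over 23 other settings and was called in none of them.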

How the results depend on the processing

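The FKBP5 response to dex kept its direction and its call in all 18 other settings in each population (log2 1.59 to 1.86 in shNS, 0.95 to 1.26 in shG9a, 1.10 to 1.27 in shGLP and 1.12 to 1.46 in shHP1g cells). Without the replicate block the count of members called with dex went from 2 to 1 in every population, by the loss of HSPA8, and the counts for shHP1g against shNS in dex and for shG9a and shHP1g against shNS in ethanol went from 1 to 0, by the loss of FKBP4. The block changed no other call of a member with dex, against shNS, in the interactions or, in fits added after seeing the data, between hairpins, where FKBP4 against shGLP had log2 0.70 to 0.88 and adjusted p = 0.00116 to 0.0116 without it. In shG9a cells the dex count was also 1 with TMM scaling, no filter, only the groups compared and limma. For shG9a against shNS in dex it was 2 with RUV factors. For shGLP against shNS in dex it was 1 with no filter, with RUV factors and with only the groups compared. For shHP1g against shNS in dex it was 2 with no filter, RUV factors or DESeq2, each time by adding FKBP5, and 0 with only the groups compared, as was the count for shHP1g in ethanol. Leaving out libraries gave 1 to 3 members with dex in shNS and 1 to 2 in the other populations, 0 to 3 for shG9a, 0 for shGLP and 0 to 1 for shHP1g in dex, and 0 to 1 for shG9a and shHP1g in ethanol. No interaction of a member was called in any of the 36 settings over the 3 hairpins. The added members were NR3C1 in shNS cells and FKBP5 and HSP90AA1 with shG9a. The NR3C1 difference in shG9a cells turned to -0.12 without replicate 1 and to -0.15 without the dex library of replicate 1, in a range of -0.15 to 0.56 when libraries were left out. Over all transcripts, those called with dex without the block were 518, 227, 147 and 159 in place of 1012, 634, 334 and 327 (shNS, shG9a, shGLP, shHP1g), those called against shNS 320, 269 and 175 in place of 895, 587 and 416 in dex and 112, 171 and 66 in place of 379, 367 and 296 in ethanol, and the interactions 2, 1 and 1 in place of 9, 12 and 2 (18, 23 and 18 with DESeq2). With TMM scaling 56.5% of those called with dex in shNS cells were higher, against 45.2% with upper quartile scaling, and 56.8% against 42.7% for shG9a in ethanol. With DESeq2 it was 47.1% against 57.4% for shGLP and 45.2% against 62.3% for shHP1g in dex. HSP90AB1 had too few counts to be tested, and NR3C1 and HSP90AA1 have wide intervals at this depth. The causes of these shifts were not tested.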
